A study of Mus musculus with 36 samples.

Results

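The genes described here encode subunits of the respiratory chain, complexes I to V, in the embryonic mouse heart. They were chosen by name. A gene was taken where a probe set was annotated to its symbol alone and the symbol began with Nduf followed by a, b, c, s or v and a number, with Uqcr, with Cox and a number from 4 to 8 or with Atp5, or was one of Sdha to Sdhd. Cox4i1, Cox4i2, Cox6a1, Cox6a2, Cox7a1, Cox7a2, Cox8a and Cox8b were not included. This gave 73 genes of the 18193 with such a probe set, with 35 in complex I, 4 in complex II, 8 in complex III, 9 in complex IV and 17 in complex V. Of these, 44 had more than 1 probe set, and the one with the highest mean over all arrays stood for the gene. The symbols are those of the array annotation, in which complex V genes keep their older Atp5 names.

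The respiratory chain lies in the inner mitochondrial membrane. Complex I takes electrons from NADH and complex II takes them from succinate, complex III passes them to cytochrome c and complex IV passes them to oxygen. Complexes I, III and IV pump protons as they work, and complex V, the ATP synthase, lets them return while making ATP. The heart draws most of its ATP from this chain after birth, while the fetal heart relies more on glycolysis. All genes here are nuclear, and their products are imported into the organelle.

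RNA was measured on 36 Affymetrix expression arrays, 3 for each of 12 groups, all from embryos of the inbred C57BL/6 strain, with no treatment named. Atria and ventricles were dissected apart at 5 embryonic days, labelled E12.5, E13.5 and E14.5 and then E16.5 and E18.5. For the E16.5 arrays this is the day in the titles, while their descriptions give an earlier day. The title was followed, so the age of the atrial and ventricular groups called E16.5 is uncertain in every comparison that uses them. At E10.5 and E11.5 the material was the middle stretch of the embryo with the heart in it, called the heart region below. Nothing in the labels says that the 3 arrays of a group came from separate litters or animals, so each p-value measures only the spread between these samples. In such bulk tissue, fewer cells of a type and less RNA per cell cannot be told apart.

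Each array gives 1 intensity per probe set on a linear scale, already scaled to a common trimmed mean when deposited. Differences are on the log2 scale of intensity plus 17, and were tested with limma across the 27256 probe sets above a low-signal filter. A gene is called where its Benjamini-Hochberg adjusted p lay below 0.05. All members but 1 passed the filter. The exception, the testis isoform gene Cox7b2, read from 6.9 to 88 on atrial arrays and from 12.1 to 114 on ventricular arrays. Among the 72 others, 64 had a mean intensity of at least 4000 and 5 one under 1000, and since probes differ in brightness no gene is set against another by level. The 12 cardiomyocyte markers examined were measured in every group with none at 0. Arrays of 1 group correlated at 0.941 to 0.984.

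Before the results, 5 arrays need naming. E14.5 ventricle array 1, E14.5 atrium array 2 and E16.5 atrium array 2 stood above the other arrays of their groups in the mean level of the respiratory chain genes, at 0.30, 0.20 and 0.18 on the log2 scale relative to the mean of all arrays. The same arrays read 0.13, 0.18 and 0.14 over the 1303 other probe sets with a mean of at least 4000, and 0.34, 0.27 and 0.21 over the cardiomyocyte markers. E12.5 atrium array 2 and E16.5 ventricle array 2 carried high liver transcripts, with summed intensities of 19552 and 11253 over the liver list. Counts without either set of arrays are given where they differ by over 1.5 times.

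Across the 12 groups, 65 of the 72 genes had their highest group mean in E18.5 ventricles, and 40 had their lowest in E13.5 atria. The same was not counted over all probe sets. The mean level of all members, relative to the mean of 36 arrays, lay at -0.14 ± 0.03 in the E10.5 heart region and -0.13 ± 0.02 in the E11.5 heart region (log2, SD, n = 3 each). From E12.5 to E18.5, in order of age, the 5 atrial groups read -0.14 ± 0.04, -0.21 ± 0.05, -0.07 ± 0.23, -0.03 ± 0.18 and -0.01 ± 0.09. The 5 ventricular groups read 0.02 ± 0.10, 0.05 ± 0.09, 0.09 ± 0.19, 0.20 ± 0.11 and 0.37 ± 0.11 in the same order. The atrial and ventricular arrays did not overlap in this level at E12.5, E13.5 and E18.5, and overlapped at E14.5 and E16.5. At E18.5 the 3 atrial arrays lay between -0.08 and 0.09 and the 3 ventricular arrays between 0.25 and 0.46. After quantile normalization the mean level of all members was lowest in the E10.5 heart region, at -0.19. E12.5 atria then read -0.15 and E13.5 atria -0.13, so the low of E13.5 atria depended on the scaling. The highest level was again that of E18.5 ventricles, at 0.29.

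The course of each complex is given here as a description. In ventricles the mean level of complex I read -0.02 ± 0.10, 0.07 ± 0.09, 0.07 ± 0.16, 0.25 ± 0.11 and 0.44 ± 0.10 from the youngest to the oldest group. Complex III read 0.03 ± 0.13, 0.10 ± 0.11, 0.09 ± 0.19, 0.22 ± 0.15 and 0.42 ± 0.14 at the same ages, and complex V read 0.05 ± 0.12, 0.04 ± 0.09, 0.12 ± 0.26, 0.15 ± 0.12 and 0.32 ± 0.13. Complex II ended at 0.42 ± 0.15 in E18.5 ventricles. Complex IV read 0.06 ± 0.10 in E12.5 ventricles and 0.12 ± 0.09 in E18.5 ventricles. It is a mean over 8 genes and is lowered at E18.5 by Cox6b2. That gene changed by -0.80 in ventricles and -2.10 in atria from E12.5 to E18.5. The median change of the 8 genes was 0.15 in ventricles and -0.10 in atria. In atria the E18.5 level was 0.05 ± 0.09 for complex I, -0.10 ± 0.14 for complex II, -0.03 ± 0.12 for complex III, -0.14 ± 0.02 for complex IV and -0.06 ± 0.12 for complex V. The tests below are per gene.

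**Figure D1:**
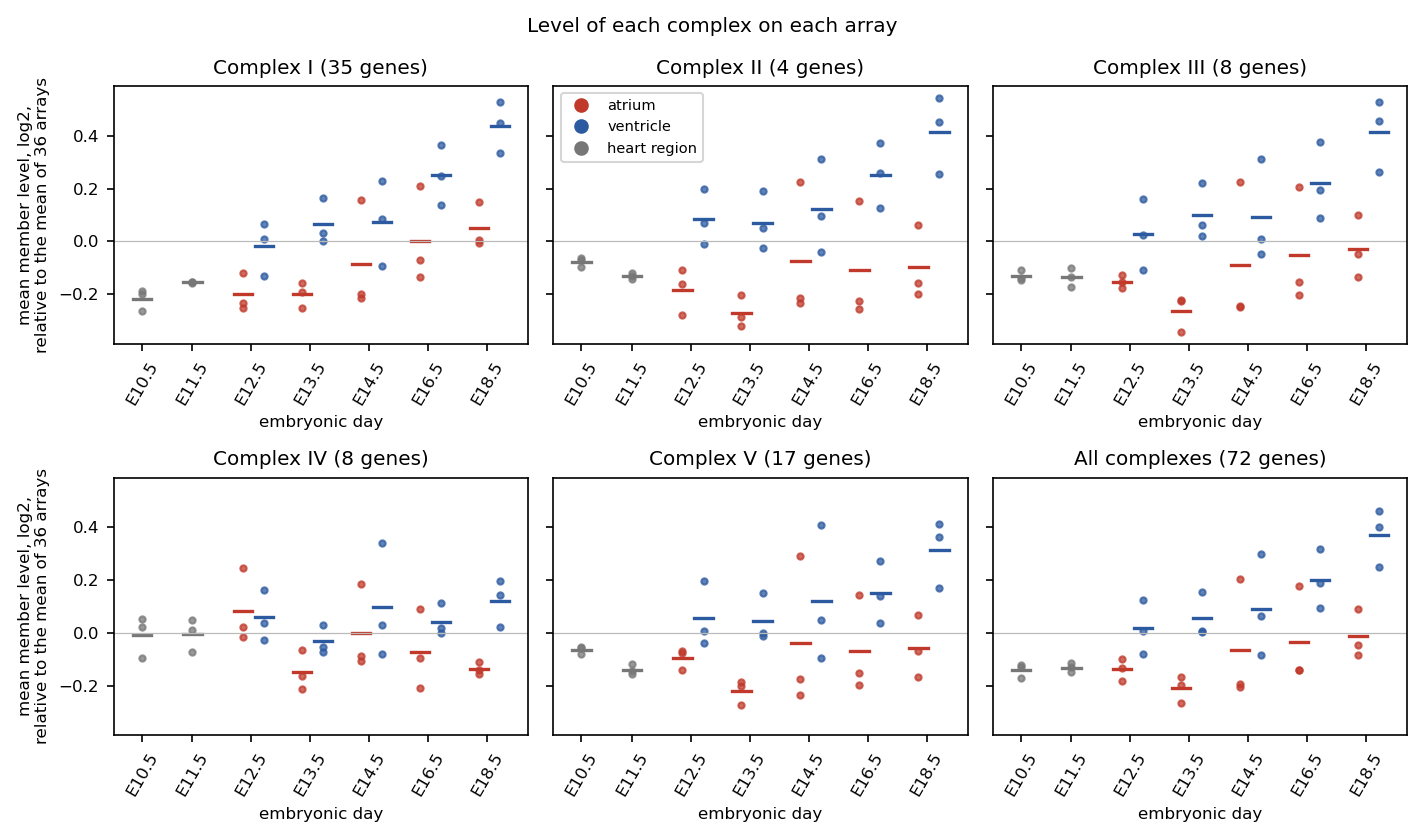
Mean member level of each complex (log2, relative to the mean of the 36 arrays) against embryonic day, with 1 point per array, short bars for group means, and red for atrium, blue for ventricle and grey for heart region. In E18.5 the 3 ventricular arrays lie above the 3 atrial arrays in every panel, and the E14.5 and E16.5 atrial groups each hold 1 array, array 2, far above the other two.

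Atria were compared with ventricles first, over the mean of the 5 ages (15 arrays each). Respiratory chain transcripts were lower in atria, with 58 of 72 genes lower, 1 higher and 13 not passing the test. Of all probe sets tested, 21.5% were lower and 20.9% higher. The difference was negative for 71 of the 72 genes, with a median of -0.22. Over all probe sets it was negative for 14224 of 27256, with a median of -0.01. Every complex took part, with 27 of 35 genes of complex I lower (median -0.23), 4 of 4 of complex II (-0.34), 7 of 8 of complex III (-0.31), 5 of 8 of complex IV (-0.18) and 15 of 17 of complex V (-0.18). Whether the complexes differ from each other was not tested.

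Other measures moved between the chambers as well. Of the cell type lists, 8 of 10 fibroblast and matrix genes, 6 of 7 epicardial genes, 5 of 6 erythroid genes and 5 of 8 macrophage genes were higher in atria. Of the 12 cardiomyocyte markers, 5 were lower and 1, the alpha myosin heavy chain gene Myh6, was higher, at 0.38. At E18.5 the summed intensity of the cardiomyocyte list ran from 103148 to 115535 in atria and from 114948 to 141225 in ventricles, and that of the fibroblast list from 55638 to 61971 in atria and from 44684 to 49956 in ventricles. Among the 1303 other bright probe sets the median difference was -0.06, with 408 lower and 215 higher; under quantile normalization these were 328 lower and 430 higher, while 57 of the 72 members were lower and 1 higher with a median of -0.15. The part of cell composition in the members' difference was not tested. Without the 3 arrays that stood apart, 66 members were lower and 1 higher. Those arrays stood apart by the members' own level and most are atrial, so this count is no separate support.

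In complex I the 4 largest differences were those of Ndufb10, Ndufa4l2, Ndufa8 and Ndufa10, all lower in atria. Ndufb10, a membrane arm subunit, ran from 2984 to 6868 with a median of 3980 on the 15 atrial arrays and from 3563 to 11134.5 with a median of 6134 on the 15 ventricular arrays. Its difference was -0.58 ± 0.07 (log2, SE; limma adjusted p = 1.13e-07), 1.49-fold lower, and at 3 of the 5 ages every atrial array lay below every ventricular array. Ndufa8, which faces the intermembrane space, had a median of 4434 in atria (range 3765 to 6293) and 6577 in ventricles (range 4685 to 9216), a difference of -0.47 ± 0.05. Ndufa10, another accessory subunit, had a median of 4498 in atria (range 3805 to 6017) and 5854 in ventricles (range 4714 to 9284), a difference of -0.46 ± 0.05. For both genes the chambers were separate at 4 of 5 ages.

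Genes of the catalytic core of complex I were lower too, but the core gene Ndufs8 was not called, at -0.04 (adjusted p = 0.659, limma). Ndufv1, which binds the flavin where NADH is oxidised, had a median of 5976 in atria (range 4822 to 7811) and 7634 in ventricles (range 5529 to 9952), and differed by -0.39 ± 0.06. Ndufs1, an iron-sulfur subunit of the NADH module, differed by -0.37 ± 0.04 and Ndufs7, which carries the last iron-sulfur cluster before the quinone, by -0.38 ± 0.04. Both were separate between chambers at 4 of 5 ages. Ndufa4l2, a hypoxia-inducible relative of Ndufa4, was dim and spread widely, from 77.1 to 1134 in atria and from 202.6 to 1274 in ventricles, and its difference of -0.48 ± 0.17 had an adjusted p of 0.0211 in limma. The genes of complex I that missed the threshold were Ndufb4, Ndufb11, Ndufb1, Ndufa3, Ndufa4, Ndufa12, Ndufa7 and Ndufs8. Ndufa4, whose product was later assigned to complex IV, read -0.11 (adjusted p = 0.122, limma).

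In complex II all 4 genes were lower in atria. Sdha, the flavoprotein that oxidises succinate, had a median of 6543.5 in atria (range 6130.5 to 9088) and 8677 in ventricles (range 7410.4 to 11339), a difference of -0.39 ± 0.06 (adjusted p = 1.22e-05, limma). The iron-sulfur subunit gene Sdhb differed by -0.33 ± 0.05 and the membrane anchor genes Sdhc and Sdhd by -0.29 ± 0.04 and -0.35 ± 0.06. Atria and ventricles were separate at 3 of 5 ages for each of the 4. The other probe sets of Sdha differed by -0.52 ± 0.06 and -0.37 ± 0.09, both called, while the other probe set of Sdhc differed by 0.04 ± 0.11.

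Complex III showed the same direction. Uqcrc1, a core protein of the matrix side, had a median of 7303 in atria (range 6102 to 9693) and 10004 in ventricles (range 8099 to 11837), a difference of -0.40 ± 0.06. Uqcrfs1, the Rieske iron-sulfur protein, differed by -0.38 ± 0.06 and the other core protein gene Uqcrc2 by -0.36 ± 0.05. Among small subunits, Uqcr11 and Uqcrq differed by -0.32 ± 0.06 and -0.31 ± 0.05. Uqcrb was the 1 gene of this complex not called.

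Complex IV had 5 of 8 genes lower and the 1 gene of the set that was higher in atria. Cox5a and Cox5b, which line the matrix side of the enzyme, differed by -0.18 ± 0.06 and -0.19 ± 0.06, Cox6b1 by -0.16 ± 0.06 and Cox7a2l, a supercomplex factor, by -0.12 ± 0.04. Cox8c, a testis isoform gene, had a median of 873 in atria (range 719 to 1227) and 1108 in ventricles (range 889 to 1643), a difference of -0.32 ± 0.06. Cox6b2, the testis isoform of Cox6b, was higher in atria, with a median of 649 (range 229 to 2665) and 448 in ventricles (range 296.7 to 579.6), a difference of 0.47 ± 0.12 (adjusted p = 0.0023, limma). Its atrial arrays all lay above the ventricular arrays at 3 of the 5 ages and overlapped them at the other two. Cox6c read -0.17 (adjusted p = 0.0521, limma) and Cox7c -0.22 (adjusted p = 0.0567).

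In complex V the largest difference of the whole set was that of Atp5md, which encodes a small membrane subunit at the dimer interface. It had a median of 5461 in atria (range 3811 to 10465) and 9916 in ventricles (range 7555 to 13959.8). The difference was -0.72 ± 0.09 (adjusted p = 5.07e-08, limma), 1.65-fold lower, and the chambers were separate at 4 of 5 ages. Of the catalytic head, Atp5a1 (alpha) differed by -0.18 ± 0.06 and Atp5b (beta) by -0.15 ± 0.06. The 3 genes of the rotor ring subunit c, which encode the same mature protein, were unequal. Atp5g1 differed by -0.44 ± 0.06 and Atp5g2 by -0.18 ± 0.05, both called, and Atp5g3 by -0.12 (adjusted p = 0.241, limma). Atp5l, the membrane subunit g, differed by -0.29 ± 0.05. Besides Atp5g3, Atp5j2 was not called.

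**Figure D2:**
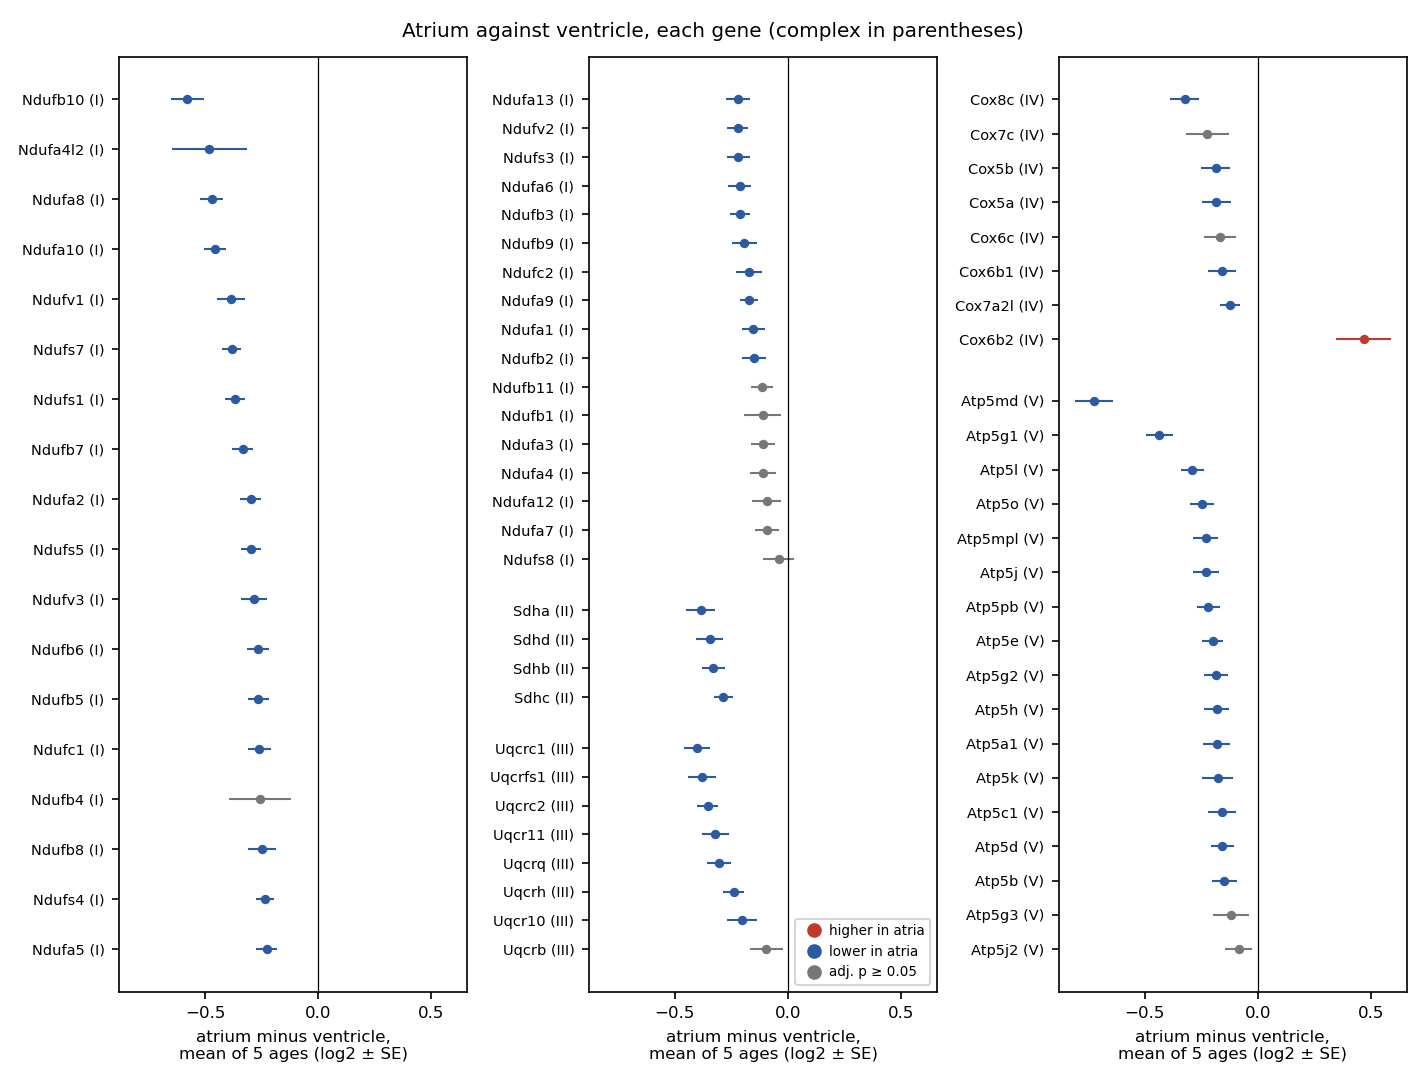
Difference between atrium and ventricle for each of the 72 genes, as the mean of 5 ages (log2, point and SE), ordered by size within each complex, with blue for called lower in atria, red for called higher and grey for not called. All but Cox6b2 lie left of 0, and Atp5md lies farthest, at -0.72.

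The promoters of the members, called or not, were examined in RefSeq windows from 250 bases before to 50 bases after the start (GRCm38.p6). Windows were at hand for 61 of the 73 genes, and whether a motif goes with the chamber difference was not tested. Nuclear respiratory factor 1 (NRF1) is known to bind near many respiratory chain genes. Its core motif, GCGCANGCG on either strand, was present for 17 genes or 27.9%, against 7.03% of 27025 genes of all kinds and 9.63% of 17491 coding genes. It was found in 6 of 31 genes of complex I, 2 of 3 of complex II, 2 of 5 of complex III, 0 of 7 of complex IV and 7 of 15 of complex V. An ETS motif (CCGGAAGT) was present for 4 genes (6.56%, near the 5.69% of coding genes, against 4.31% of all genes). A YY1 motif (AAGATGGCG) was present for 6 (9.84%, against 2.14% of coding and 1.64% of all genes) and an oestrogen-related receptor motif (TCAAGGTCA) for 2 (3.28%, against 0.377% and 0.466%), all on either strand. No pair of different motifs overlapped in a member's window, and a match is a description of letters, not a bound site. The 3 sequences below are the 250 bases before the start of the gene with the largest atrial difference in complexes I, II and V among those with an NRF1 match before the start, 5′ to 3′ on the gene's strand with the match in capitals. Ndufa8 lies on the minus strand at chr2:36049339-36049588, Sdha on the minus strand at chr13:74350241-74350490 and Atp5l on the minus strand at chr9:44920743-44920992.
Ndufa8: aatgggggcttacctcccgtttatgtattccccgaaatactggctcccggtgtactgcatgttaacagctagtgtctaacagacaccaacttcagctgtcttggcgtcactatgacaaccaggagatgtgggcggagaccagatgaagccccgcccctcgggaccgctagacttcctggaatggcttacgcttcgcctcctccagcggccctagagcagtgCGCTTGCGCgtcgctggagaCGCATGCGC
Sdha: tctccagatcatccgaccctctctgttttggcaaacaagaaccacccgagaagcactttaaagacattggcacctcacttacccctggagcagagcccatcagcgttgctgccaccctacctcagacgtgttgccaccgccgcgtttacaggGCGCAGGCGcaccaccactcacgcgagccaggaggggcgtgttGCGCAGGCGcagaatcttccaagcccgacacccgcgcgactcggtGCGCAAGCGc
Atp5l: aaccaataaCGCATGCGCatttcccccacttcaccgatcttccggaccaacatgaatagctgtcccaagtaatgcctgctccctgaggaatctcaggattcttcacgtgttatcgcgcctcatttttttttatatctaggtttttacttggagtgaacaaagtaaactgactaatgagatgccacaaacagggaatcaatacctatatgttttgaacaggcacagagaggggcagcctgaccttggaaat
The 2 matches of Ndufa8 ended 21 and 1 bases before the start and the 3 of Sdha ended 90, 47 and 2 bases before it, while the match of Atp5l ended 233 bases before it.

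Taken age by age, the chamber difference was called for few genes at E12.5 and for most at E18.5. At E12.5, 5 members were lower in atria (5.27% of all probe sets were) and 2 higher (4.4%). The lower ones were Atp5md at -1.003 ± 0.191, Atp5g1, Ndufa10, Ndufa2 and Ndufs7, and the higher ones Cox6b2 at 1.24 ± 0.27 and Ndufs8 at 0.52 ± 0.16. The total of 7 calls ran from 1 to 11 as each array was left out; it was 3 without E12.5 ventricle array 2 or 3 or atrium array 2, 1 without atrium array 1 and 11 without atrium array 3, and 3 without both arrays high in liver genes. It was 21 under quantile normalization. At E13.5, 22 were lower (6.27% of all probe sets), among them 3 of 4 of complex II, 6 of 8 of complex III and none of complex IV. That count was 6 without ventricle array 1, 12 without atrium array 2 and 10 without atrium array 3.

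At E14.5 no member was called (2.38% of all probe sets were lower, 3.8% higher). An unadjusted p below 0.05 (limma) was found for 12 of 72 members and for 6183 of 27256 probe sets. The E14.5 count of calls was 10 without atrium array 2 and 4 without ventricle array 2. It was 0 without the 3 arrays that stood apart and 5 under quantile normalization. At E16.5, 20 were lower (8.32%), led by Atp5md at -0.79 ± 0.19, Ndufb10 at -0.68 ± 0.16 and Ndufa8 at -0.55 ± 0.11. This count was 8 without ventricle array 3, 11 without atrium array 1 and 10 without atrium array 3. It was 12 without the arrays high in liver genes and 36 under quantile normalization. It was 47 without the 3 arrays that stood apart, of which the one at this age is atrial and had a high member level.

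At E18.5, 45 of 72 genes were lower in atria and none higher, where 8.53% of all probe sets were lower and 11% higher. The median of the members was -0.38. By complex, 23 of 35 genes of complex I were lower, 4 of 4 of complex II (median -0.51), 6 of 8 of complex III (-0.46), 2 of 8 of complex IV (-0.33) and 10 of 17 of complex V (-0.37). Ndufb10 read 6868, 5254 and 4853 in E18.5 atria, against 9449, 11134.5 and 9112 in E18.5 ventricles, a difference of -0.82 ± 0.16. Sdha read 7883, 6477.5 and 6543.5 in atria, against 10758, 11339 and 8940.5 in ventricles, a difference of -0.57 ± 0.14. Uqcrc1 read 8569.5, 6962 and 7303 in atria, against 11837, 11583 and 10435 in ventricles, a difference of -0.57 ± 0.12. In each of these genes the highest atrial array was array 1, and all atrial arrays lay below all ventricular ones. Atp5g1 read 8628, 7317 and 7469 in atria, against 11942, 12219.9 and 10022 in ventricles, and the same separation held there. The count of 45 was 23 without E18.5 ventricle array 2 and 27 without atrium array 2 or atrium array 3. Among the 1303 other bright probe sets the E18.5 median was -0.13, with 241 lower and 91 higher. Quantile normalization gave 36 members lower and none higher, with a median of -0.19, and turned the other bright probe sets to a median of 0.04, with 160 lower and 273 higher.

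The change with age was then followed in each chamber, from E12.5 to E18.5. In ventricles 38 of 72 genes were higher at E18.5 and 1, Cox6b2, lower, where 12.7% of all probe sets were higher and 16% lower. The median was 0.36 against -0.05 over all probe sets and -0.03 over the other bright ones. Higher at E18.5 were 24 of 35 genes of complex I (median 0.41), 2 of 4 of complex II (0.33), 5 of 8 of complex III (0.39), 7 of 17 of complex V (0.31) and none of 8 of complex IV (0.15). The cardiomyocyte list had 4 of 12 genes higher and none lower over the same ages, with Ryr2, the calcium release channel, at 0.92, and all 6 erythroid genes fell, with list sums of 1290 to 1606 at E18.5 and 25300 to 66284 at E12.5. The part of these shifts in the members' rise was not tested.

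Ndufb10 had the largest ventricular rise among genes with a mean of at least 4000. It read 9449, 11134.5 and 9112 at E18.5, against 3718, 5676 and 3563 at E12.5, and every E18.5 array lay above every E12.5 array. The difference was 1.22 ± 0.16 (log2, SE; adjusted p = 1.86e-06, limma). Ndufs8, an iron-sulfur subunit of the quinone arm, read 9950.2, 10914 and 9306 at E18.5, against 5859.7, 5115 and 5020.1 at E12.5, again without overlap, a difference of 0.91 ± 0.16. Of its 5 other probe sets, 4 were higher by 0.59 to 0.89, all called, and 1 read -0.35 (adjusted p = 0.233, limma). Ndufa8 rose by 0.77 ± 0.11 and Ndufa10 by 0.59 ± 0.11.

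Ndufa4l2 had the largest log2 rise at a low level. It read 907, 932 and 1157 in E18.5 ventricles, against 202.6, 412 and 331 at E12.5, a difference of 1.66 ± 0.37. In complex III Uqcr11 read 11326, 10834 and 9146 at E18.5, against 5625, 7164 and 6404 at E12.5, a difference of 0.71 ± 0.13, and Uqcrq rose by 0.65 ± 0.12. In complex II Sdhc and Sdhb rose by 0.40 ± 0.10 and 0.38 ± 0.12. The rise of Sdhc was that of its brightest probe set, and the mean over its probe sets did not rise. In complex V the central stalk genes Atp5c1 (gamma) and Atp5e (epsilon) rose by 0.47 ± 0.14 and 0.47 ± 0.11. Of the subunit c genes Atp5g1 rose by 0.43 ± 0.13, while Atp5g2 read 0.16 (adjusted p = 0.348, limma) and Atp5g3 0.01 (adjusted p = 0.977).

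By E16.5, 12 ventricular genes were higher than at E12.5 (7.22% of all probe sets), 10 of them in complex I, and this count was 4 without E12.5 ventricle array 1 or E16.5 ventricle array 3, 7 without E12.5 ventricle array 3 and 7 without the arrays high in liver genes, but 38 under quantile normalization. From E16.5 to E18.5 no ventricular member was called, where 0.216% of all probe sets were called in either direction. An unadjusted p below 0.05 (limma) was found for 16 of 72 members and for 2858 of 27256 probe sets. Differences were positive for 69 of 72 members and for 11552 of 27256 probe sets. The members' median was 0.18 as deposited and 0.08 under quantile normalization.

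In atria 11 of 72 genes were higher at E18.5 than at E12.5 and 1 lower, with a median of 0.09, where 12.6% of all probe sets were higher and 11.7% lower, so the share higher, 15.3%, lay near that of all probe sets. Under quantile normalization 38 were higher and 2 lower. Higher as deposited were 9 of 35 genes of complex I, 1 of 8 of complex III and 1 of 17 of complex V. Over the same ages 2 of 12 cardiomyocyte genes were higher, the other bright probe sets had a median of -0.14, and all 6 erythroid genes fell, with list sums of 3497 to 4061 at E18.5 and 40399 to 71292 at E12.5; their part in the members' change was not tested. Ndufb10 read 6868, 5254 and 4853 at E18.5, against 3545, 2984 and 3731 at E12.5, a difference of 0.71 ± 0.16 without overlap. Atp5md read 10465, 8029 and 8629 at E18.5, against 3811, 4861 and 5710.3 at E12.5, a difference of 0.92 ± 0.19 (adjusted p = 0.000738, limma). Ndufa4l2 read 913, 872 and 895 at E18.5, against 77.1, 132.8 and 200.2 at E12.5, a difference of 2.65 ± 0.37. These 3 genes thus had each E18.5 atrial array above each E12.5 atrial array. Uqcr11 rose by 0.58 ± 0.13 and Ndufa8 by 0.54 ± 0.11. Ndufb1, a small membrane arm subunit read at low intensity, rose by 0.62 ± 0.18. The total of 12 was 7 without E12.5 atrium array 2, 6 without E18.5 atrium array 1 and 7 without both arrays high in liver genes. Of 65 other probe sets of the members, 38 had the same sign as the chosen one in this atrial change and 27 the opposite.

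Cox6b2 went the other way. It read 229, 341 and 325 in E18.5 atria, against 2665, 1125.5 and 762 in E12.5 atria, a difference of -2.10 ± 0.27 (adjusted p = 4.75e-06, limma). In ventricles it read 317, 309.9 and 296.7 at E18.5, against 579.6, 498 and 578 at E12.5, a difference of -0.80 ± 0.27. By E18.5 the chambers overlapped. At E12.5 the 3 atrial arrays were spread by more than a factor of 3 and all lay above the ventricular arrays.

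At the intermediate age, 2 atrial genes were higher at E16.5 than at E12.5 (6.5% of all probe sets), Ndufa4l2 and Uqcr11, and 1 lower (5.4%), Cox6b2. This total of 3 was 8 without E12.5 atrium array 3 and 7 without E16.5 atrium array 3. From E16.5 to E18.5 no atrial member was called (0.316% of all probe sets were called), and 1 was called without E16.5 atrium array 1. An unadjusted p below 0.05 (limma) was found for 3 of 72 members and for 2654 of 27256 probe sets.

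**Figure D3:**
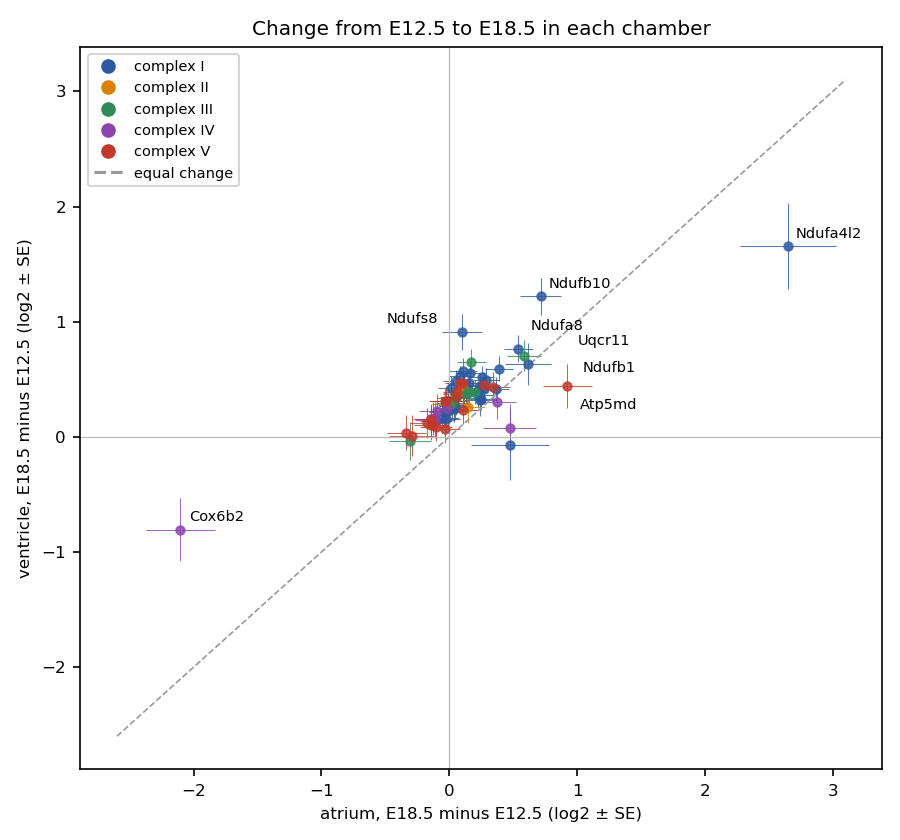
Change from E12.5 to E18.5 of each of the 72 genes (log2, point and SE) in atrium (horizontal axis) and ventricle (vertical axis), coloured by complex, with a dashed line of equal change. Most points lie above the line, Ndufs8 lies at 0.10 in atria and 0.91 in ventricles, and Cox6b2 is low on both axes.

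Whether the change with age differed between the chambers was tested directly as an interaction, the atrial change minus the ventricular one. It was negative for 67 of 72 genes, with a median of -0.26, and for 12217 of 27256 probe sets, with a median of 0.05. Of the members 2 were called, both lower (1.12% of all probe sets were lower and 2.66% higher). Taken in either direction, the members' share called was not above that of all probe sets. The median of the other bright probe sets was -0.11. Under quantile normalization the members' median was -0.07, with 1 called, and that of the other bright probe sets turned to 0.05. Cell type markers were called in the same contrast. Higher were 3 of 8 endothelial genes (Tie1 at 1.10, Emcn at 1.08 and Tek at 0.63) and the epicardial gene Krt19 at 2.28. So were the erythroid gene Hbb-y at 1.87 and the skeletal muscle gene Myh8 at 2.16. Lower were 1 of 12 cardiomyocyte genes (Myh6 at -0.73) and the epicardial gene Aldh1a2 at -1.03. The part of these markers in the members' shift was not tested. Ndufs8 differed by -0.81 ± 0.22 (adjusted p = 0.034, limma). It read 9031, 7070.1 and 8612 in E18.5 atria, against 8688, 6146 and 8353 in E12.5 atria, which overlap, unlike the ventricles above. Ndufa9, an accessory subunit near the quinone site, read 7493, 6257 and 6445 in E18.5 atria, against 6236, 6073 and 6663 in E12.5 atria. In ventricles Ndufa9 read 9021, 10366 and 8252.5 at E18.5, against 5870.4, 6509.8 and 6727 at E12.5. Its interaction was -0.44 ± 0.13 (adjusted p = 0.0497, limma). Of the 12 fits that left out 1 array, 7 lost the call of Ndufs8 and 10 that of Ndufa9. The other 70 genes were not called.

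At the earliest ages few members were called. Between the E11.5 and E10.5 heart region the call was Ndufa4l2 alone, higher at E11.5 by 1.59 ± 0.37 (adjusted p = 0.0271, limma), where 0.928% of all probe sets were higher. It read 249.8, 351 and 296 at E11.5, against 106.8, 85.5 and 72.5 at E10.5. The call was lost without any 1 of 5 of the 6 arrays, all but E10.5 array 1. Ndufs8 read 8501.5, 7263.5 and 7073 at E11.5, against 5907, 5259.8 and 5363 at E10.5, without overlap but also without a call. No member was called between the E12.5 chambers, averaged, and the E11.5 heart region in limma (0.936% of all probe sets were called). None had an unadjusted p below 0.05 in that test, against 3447 of 27256 probe sets. These 2 materials also differ in tissue, since the region holds more than the heart.

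**Figure D4:**
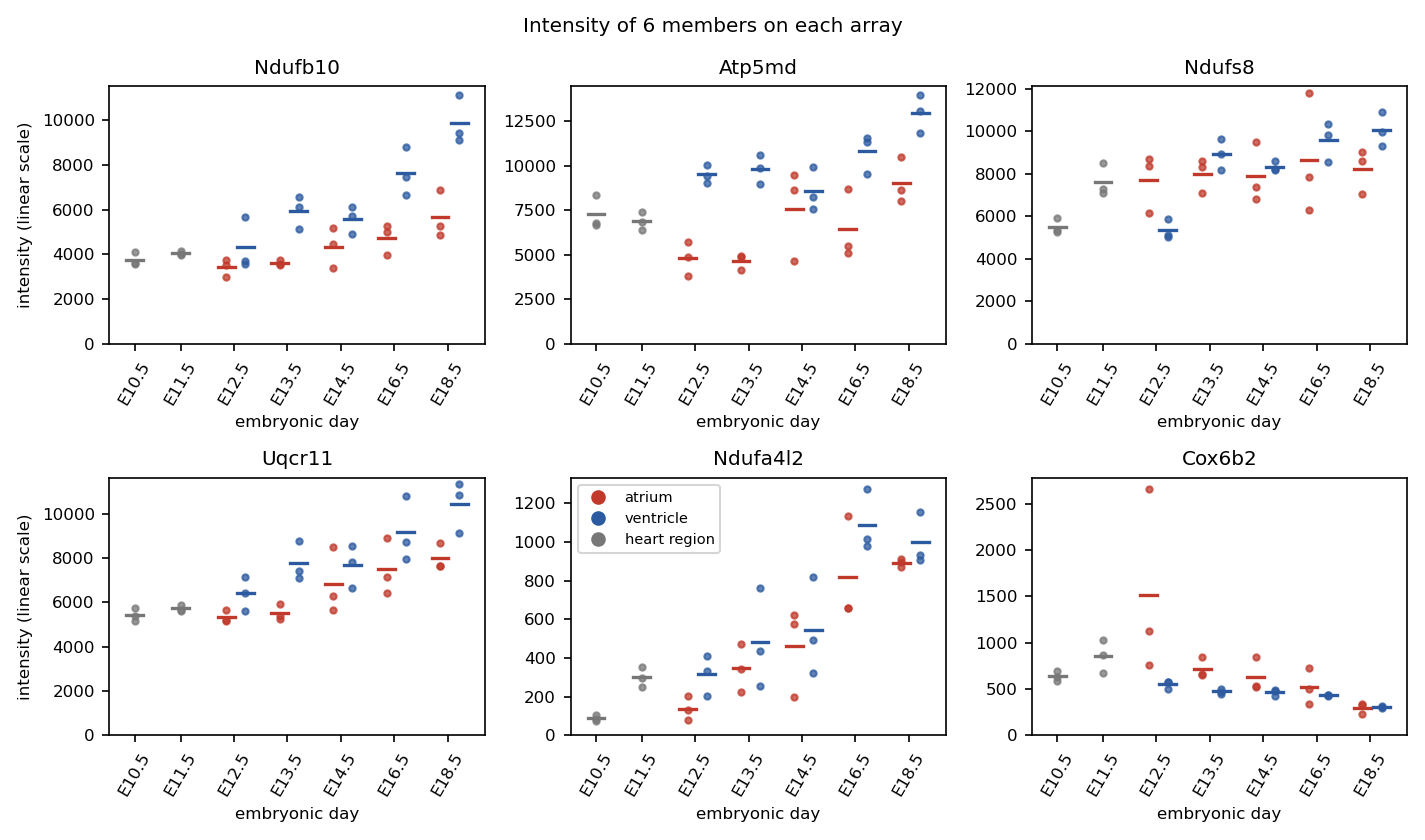
Intensity (linear scale) of 6 genes on each of the 36 arrays against embryonic day, with 1 point per array, short bars for group means, and red for atrium, blue for ventricle and grey for heart region. Ndufb10 and Uqcr11 are highest in E18.5 ventricles, Ndufs8 reads higher on all E12.5 atrial arrays than on the E12.5 ventricular arrays, Ndufa4l2 is higher on all E18.5 arrays than on the E12.5 arrays of its chamber, and Cox6b2 is highest on 1 E12.5 atrial array, at 2665.

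Genes around the respiratory chain were counted between atria and ventricles, where 21.5% of all probe sets were lower and 20.9% higher in atria. Lower in atria over the 5 ages were all 15 genes measured of the TCA cycle and pyruvate dehydrogenase, which supply NADH and succinate (median -0.33, with Dlat at -0.57 and Ogdh at -0.46). Likewise lower were 12 of 17 electron carrier and feeder genes, 8 of them for coenzyme Q synthesis (among them Coq8a at -1.34, Coq5 at -0.54, Coq7 at -0.54 and Coq3 at -0.47). All 3 subunit or regulator genes that the names left out were lower, with Cyc1, the cytochrome c1 of complex III, at -0.28, Ndufab1, the acyl carrier of complex I, at -0.28 and Atpif1, the ATP synthase inhibitor, at -0.13. Of the assembly factors 23 of 38 were lower and 2 higher.

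The same lists were counted between E12.5 and E18.5. In ventricles, where 12.7% of all probe sets were higher, 14 of 15 TCA cycle and pyruvate dehydrogenase genes were higher at E18.5 (median 0.49), as were 21 of 38 assembly factors, 10 of 17 carrier and feeder genes and 1 of the 3 other subunit genes, and 1 gene, the feeder Gpd2, was lower. In atria, where 12.6% of all probe sets were higher, 5 of 15 TCA cycle and pyruvate dehydrogenase genes and 7 of 17 carrier and feeder genes were higher. There 7 of 38 assembly factors (18.4%) and 0 of 3 other subunit genes were higher, and 1 assembly factor and 1 carrier or feeder gene were lower. Between the chambers, 21.5% of all probe sets were lower in atria over the 5 ages. Lower there were 18 of 22 mitochondrial carrier and import genes and 11 of 16 mitochondrial DNA and regulator genes. So were 8 of 10 fusion and fission genes.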

How the data were processed

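The authors deposited 1 intensity per probe set and array, with 45101 probe sets on each of 36 arrays; these intensities are on a linear scale, and from the values each array had been scaled to one mean after trimming 2% at each end. The software was not given in the sources used here. Values were not normalized again. From the deposited intensities, log2(intensity + 17) was taken, 17 being 10% of the median, and probe sets above 171.8 (the median) on at least 3 arrays were kept, which left 27256. A fold change on this scale understates that of dim genes.

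limma 3.58.1 in R 4.3.3 fitted the 12 groups together (24 residual degrees of freedom) with an intensity trend, and Benjamini-Hochberg adjusted p-values were taken over all 27256 probe sets in each of 15 comparisons. The code was tested on simulated data. The number of arrays limits the precision. The genes and lists were chosen with earlier results of these data known. In each complex and main comparison, the 3 genes with the largest called difference in each direction, those called against their complex and a set of core members were named. A longer spelling of the NRF1 and YY1 motifs was tried before the one printed. Genes came from the platform annotation, and a probe set with a suffix x_at, s_at or a_at (4, 11 and 19 of the 73) may share probes with other transcripts. In the E16.5 arrays the title was followed where the description gave an earlier day. The source field of the E10.5 and E11.5 arrays reads whole heart, while their description gives the middle stretch of the embryo, which was followed. Alternatives were other pseudocounts, filters, scalings, weights, subsets of arrays, the mean over a gene's probe sets and a replicate block.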

Additional observations from a re-analysis of the deposited data

Results flagged for a closer look

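From E12.5 to E18.5 the change differed between the chambers for 2 of 72 genes (2.78%), both lower, by the interaction test. Of all probe sets, 1.12% were lower and 2.66% higher in that test. Taken in either direction, the members' share was thus not above that of all probe sets. For Ndufs8 the atrial change minus the ventricular change was -0.81 ± 0.22 (log2, SE; adjusted p = 0.034, limma), with an atrial change of 0.10 and a ventricular change of 0.91. For Ndufa9 it was -0.44 ± 0.13 (adjusted p = 0.0497, limma), with an atrial change of 0.09 and a ventricular change of 0.53. The call was lost in 7 of the 12 fits that left out 1 array for Ndufs8 and in 10 of 12 for Ndufa9.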

How the results depend on the processing

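The counts below are of members called in either direction among 72. Leaving out each array in turn gave 55 to 64 for atria against ventricles over the 5 ages (59 in all), 1 to 11 at E12.5 (7), 6 to 18 at E13.5 (22), 0 to 10 at E14.5 (0), 8 to 26 at E16.5 (20), 23 to 52 at E18.5 (45), 4 to 15 in ventricles at E16.5 against E12.5 (12), 27 to 42 at E18.5 against E12.5 (39), 2 to 8 (3) and 6 to 14 (12) for the same in atria, 0 to 1 in atria at E18.5 against E16.5, 0 to 2 for the interaction (2) and 0 to 1 in the heart region (1). Under quantile normalization the counts were 21 at E12.5, 5 at E14.5, 36 at E16.5, 38 in ventricles at E16.5 against E12.5, 13 and 40 in atria at E16.5 and E18.5 against E12.5, 1 in atria at E18.5 against E16.5 and 1 for the interaction; there the atrial change turned to 0.11 for Atp5a1, 0.16 for Atp5b and 0.12 for Cox6c. Centring on the array median gave 3 at E12.5, 13 at E16.5, 5 in ventricles by E16.5 and 1 interaction. Fitting only the groups compared gave 1 at E12.5, 37 at E13.5, 8 at E16.5, 5 and 1 in ventricles and atria by E16.5, 0 interactions and 6 in the heart region. Array weights gave 22 at E12.5, 28 and 10 in ventricles and atria by E16.5, 32 in atria by E18.5, 21 interactions, 2 in the heart region and 1 for E12.5 against the E11.5 region. The mean over a gene's probe sets gave 1 at E14.5, 5 in atria by E16.5 and 1 interaction, and turned the ventricular change of Sdhc to -0.023. A stricter filter (above 582.9) gave 1 at E14.5 and 5 in atria by E16.5. The interaction count was 1 with a pseudocount of 1, 0 with no filter and 0 without the trend, and the heart region count was 0 with a pseudocount of 68. Chosen after seeing the data, leaving out the 3 arrays that stood apart gave 47 at E16.5, and leaving out the 2 high in liver genes gave 3 at E12.5, 12 at E16.5, 7 in ventricles by E16.5, 7 in atria by E18.5 and 1 interaction. The cause of these moves was not tested. After group means were taken out, same-numbered arrays of atrium and ventricle correlated at -0.34 to 0.16 over 15 pairs, 1 of them over 0.1. With 3 arrays per group this cannot decide whether same-numbered samples came from the same hearts, and no pairing was assumed. With a replicate block the interaction count was 1.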
